A study of Mus musculus with 9 samples.

Results

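Transcript levels of sorted intestinal stem cells were compared between Kansl1-knockout mice on day 3 of tamoxifen treatment and control mice, using 6 of the 9 libraries of the series. The 3 KO day 3 and 3 control libraries were chosen by their titles. Mice of every group carried an Lgr5-EGFP-CreERT2 allele and floxed Kansl1 alleles (Kansl1 f/f). Knockout mice had received tamoxifen once a day for 3 days, and controls had received corn oil, so loss of Kansl1 and exposure to tamoxifen cannot be told apart here. The cells were gated on green fluorescent protein expressed from the Lgr5 gene, the same gene that carries the inducible Cre, so recombination was limited to cells that express Lgr5 and to their progeny. The labels state neither age nor the number of animals per library, nor whether replicates came from separate mice. The p-values therefore measure the spread between these libraries, which may be technical. The comparison asks which transcripts differ shortly after KANSL1 is lost.

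KANSL1 is the scaffold of the non-specific lethal (NSL) complex, in which the acetyltransferase KAT8 acetylates histone H4, chiefly at promoters of widely expressed genes. KAT8 also works in a separate complex, MSL, which does not contain KANSL1. Lgr5-positive cells at the crypt base divide daily and renew the intestinal epithelium. Genes of lysosomes, of intraflagellar transport and of other housekeeping systems are among the targets that have been described for the NSL complex. Interferon gamma is the usual inducer of the p47 GTPases and of antigen presentation genes in epithelium.

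Totals were 12164479 to 17913787 reads per library in controls and 8400458 to 21484679 at KO day 3, with KO day 3 replicate 1 the shallowest. That library also stood apart from its own group. Its log2 levels correlated across genes at 0.911 and 0.906 with those of KO day 3 replicates 2 and 3, which correlated with each other at 0.970. The controls correlated with one another at 0.967 to 0.971 (genes are not independent replicates). Transcripts of the mitochondrial genome took 25.8%, 16.4% and 17.8% of counts in the controls and 19.0%, 32.4% and 30.6% at KO day 3, a difference in means of 7.31 percentage points (exact permutation test, two-sided, p = 0.2, with 0.1 the smallest p that 3 against 3 allows). They were left out before the nuclear genes were scaled. Levels are given in CPM, counts relative to the nuclear library size scaled by TMM factors, given in the order of replicates 1, 2 and 3. Fold changes are log2 values of KO day 3 against control from edgeR, with their standard error (SE), and a gene was called at a Benjamini-Hochberg adjusted p under 0.05.

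Kansl1 itself (ENSMUSG00000018412) lay at 8.60, 22.0 and 19.1 CPM in controls and at 5.63, 5.85 and 5.0 CPM at KO day 3. Every KO day 3 library was below every control, but the controls spread widely, and the difference did not pass the threshold (log2 fold change -1.59 with SE 0.36, adjusted p = 0.0624 by edgeR). It passed in DESeq2 (adjusted p = 0.00262) and missed in limma voom (adjusted p = 0.0731). The labels do not say which exons were floxed, so this count adds deleted and remaining exons. Of the 12 tested NSL and MSL genes 0 were called by edgeR, with 3 at an unadjusted p under 0.05, while DESeq2 called 1 (Kansl1) and voom 0. Their median log2 fold change was 0.25, and 0.14 without KO day 3 replicate 2. The acetyltransferase Kat8 was at 22.0 ± 1.51 CPM in controls and 19.5 ± 3.94 at KO day 3 (SD, n = 3), with overlapping groups. Kansl2 and Wdr5 were higher in every KO day 3 library without passing the threshold, at log2 fold changes of 0.54 (SE 0.22) and 0.34 (SE 0.15).

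The stem cell identity of the sorted cells was held against its markers. Olfm4, the most abundant marker, was at 16239, 16748 and 17292 CPM in controls and 12923, 17406 and 14032 at KO day 3. Lgr5 was at 67.5 ± 8.78 CPM in controls and 60.3 ± 19.2 at KO day 3, and Ascl2, the transcription factor of the crypt base, at 117 ± 15 and 116 ± 49.4 (SD, n = 3). The groups overlapped for these 3 genes. Of 29 tested stem cell markers 0 were called in edgeR, DESeq2 or voom and 0 had an unadjusted p under 0.05. Their median log2 fold change was -0.13 (-0.04 without KO day 3 replicate 1, -0.07 without control replicate 3), and 1 of them did not overlap between groups, against 30.4% of all tested genes. Summed on the TMM scale, they overlapped, at 21437, 22166 and 22849 CPM in controls and 16951, 22886 and 19085 at KO day 3. Without TMM scaling the sums were 21582, 24758 and 26206 CPM in controls and 14600, 21144 and 18420 at KO day 3. On that scale every KO day 3 library was below every control. Mki67, a marker of dividing cells, was at 46.3, 44.4 and 44.4 CPM in controls and 57.8, 75.3 and 57.5 at KO day 3, apart from the controls but not called (log2 fold change 0.50 with SE 0.16, adjusted p = 0.144 by edgeR).

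Of 13108 tested nuclear genes 334 (2.55%) were called, of which 274 (2.09%) fell and 60 (0.458%) rose. The fallen genes had a median log2 fold change of -1.53 and 241 of them fell by more than 1 on the log2 scale. The risen genes had a median of 1.43, with 41 above 1. Over the 6 libraries the median level was 13.9 CPM for fallen genes, 50.7 CPM for risen genes and 19.5 CPM for all tested genes. These levels include KO day 3, so a fall lowers them and a rise raises them. They do not show how abundant the genes were in controls. The groups did not overlap for any of the 334 called genes, whereas 3985 of all tested genes (30.4%) had groups that did not overlap. DESeq2 called the same 334 genes among 1226, and limma voom called 58 of the 60 and 269 of the 274.

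The number called depended on which library was left out. It fell to 6, 8 and 17 without control replicate 1, 2 or 3, and to 50 and 11 without KO day 3 replicate 2 or 3, and it rose to 878 of 13489 (6.51%) without KO day 3 replicate 1, with 198 higher (1.47%) and 680 lower (5.04%). Those 878 held all 334. The direction of each of the 334 held in all 6 of these fits. Because their groups did not overlap, that outcome was all but set in advance and does not bear on how stable the calls are. Calls by setting are shown in the plot of genes called under each alternative.

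**Figure D1:**
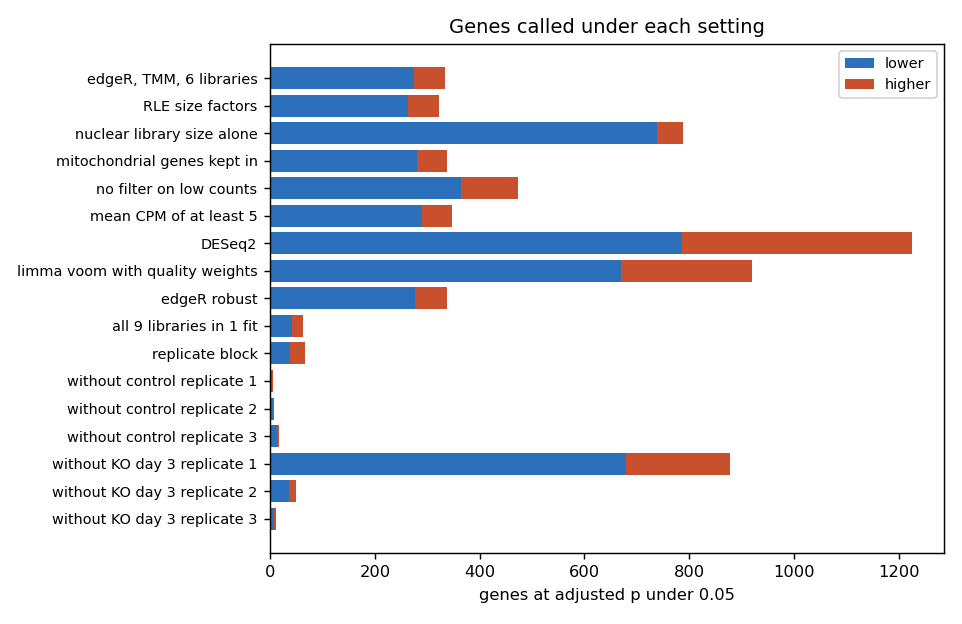
Number of genes called lower (blue) and higher (orange) at an adjusted p under 0.05 on the x axis, by setting on the y axis. The 334 calls of the 6-library edgeR test fall to 6 to 50 when any library other than KO day 3 replicate 1 is left out, and rise to 878 without that one.

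Among genes with at least 5 CPM, the 15 with the largest falls came from several cell systems, which are described by role. Nicn1, a subunit of the enzyme complex that adds glutamate chains to tubulin, was at 8.90, 8.52 and 9.59 CPM in controls and 1.36, 1.36 and 0.348 at KO day 3 (log2 fold change -3.20, SE 0.51). Every KO day 3 library was far below every control. Amt, which encodes aminomethyltransferase of the glycine cleavage system, begins 354 bases downstream of Nicn1 on the same strand of chromosome 9. It was at 11.6, 17.3 and 16.0 CPM in controls and 0.512, 1.95 and 1.53 at KO day 3 (log2 fold change -3.40, SE 0.42). Rsu1, an adaptor of integrin adhesion sites, fell by 2.99 on the log2 scale and was nearly absent from KO day 3 replicate 1, at 0.171 CPM against 2.37 and 2.36 in the other two.

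Shkbp1 and Gstm2 varied little within each group. Shkbp1, whose product binds the endocytic adaptor SH3KBP1, was at 24.3, 22.9 and 24.5 CPM in controls and 3.07, 2.88 and 3.41 at KO day 3 (log2 fold change -2.93 with SE 0.22, adjusted p = 0.00506 by edgeR). Gstm2, a mu-class glutathione transferase with close relatives in the same gene cluster, was at 38.7, 48.3 and 38.3 CPM in controls and 7.67, 5.59 and 4.87 at KO day 3 (log2 fold change -2.81 with SE 0.24, adjusted p = 0.00558 by edgeR). Both were called with any one library left out. Hdac8, a class I deacetylase that acts on cohesin, was at 12.7, 11.3 and 10.8 CPM in controls and 1.36, 1.44 and 1.25 at KO day 3 (log2 fold change -3.09 with SE 0.30, adjusted p = 0.0102 by edgeR). It was the 1 gene called among 21 tested histone acetyltransferases, deacetylases and acetyl readers outside the NSL and MSL complexes, against 2.09% of all tested genes called lower. The plot of the genes with the largest falls gives each library.

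**Figure D2:**
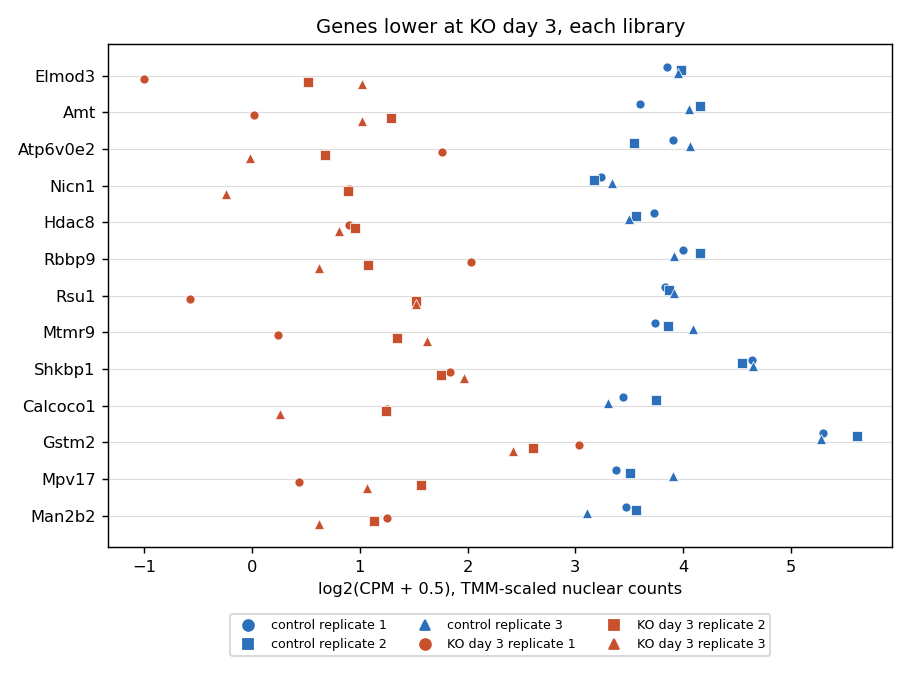
Level of 13 of the 15 genes with the largest called falls, as log2(CPM + 0.5) on the x axis, for each control (blue) and KO day 3 (orange) library. The blue and orange points of a gene never overlap, and KO day 3 replicate 1 lies lowest for Elmod3 (0 CPM) and Rsu1 (0.171 CPM).

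Others of the 15 were genes of membranes, lysosomes and mitochondria. Elmod3, an activator of GTP hydrolysis by ARL proteins, fell by 3.96, the largest of the set, from 14.7 ± 0.735 to 0.821 ± 0.771 CPM (SD, n = 3), with no read in KO day 3 replicate 1. Atp6v0e2, a subunit of the lysosomal proton pump, fell by 3.37, and Man2b2, a lysosomal mannosidase, fell by 2.73. Mpv17, an inner membrane protein needed to keep mitochondrial DNA, fell by 2.78. Calcoco1, a receptor for autophagy of the endoplasmic reticulum, fell by 2.92. Mtmr9, a catalytically inactive myotubularin, fell by 2.94, and the serine hydrolase Rbbp9 fell by 3.02. These 7 genes were below 4 CPM in every KO day 3 library.

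Genes of the primary cilium lay lower together at KO day 3, although few passed the test singly. The cilium is built by intraflagellar transport (IFT) trains, complexes A and B, which carry cargo along the axoneme, while the BBSome moves membrane proteins and the transition zone gates the base. In complex B, 3 of 16 tested members fell and 0 rose, with a median log2 fold change of -0.95 and no positive value, against 2.09% called lower and a median of -0.00020 among all tested genes. Ift27, a Rab-like GTPase of the train, was at 26.2, 19.0 and 20.6 CPM in controls and 4.60, 3.22 and 4.45 at KO day 3 (log2 fold change -2.43 with SE 0.26, adjusted p = 0.0106 by edgeR). Ift46 was at 28.4 ± 1.13 CPM in controls and 11.8 ± 2.80 at KO day 3, and Ift52 at 44.2 ± 2.97 and 21.5 ± 3.24 (SD, n = 3). Without TMM scaling, the summed level of complex B was 259, 243 and 261 CPM of nuclear counts in controls and 112, 114 and 115 at KO day 3. With TMM scaling it was 257, 218 and 227 CPM in controls and 130, 123 and 119 at KO day 3. The 3 KO day 3 sums lay close together and well below each control.

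Complex A brings cargo back to the cell body. Its median was -1.41, and 1 of 7 tested members fell, against 2.09% of all tested genes called lower. The called member was Ttc21b, at 9.27, 12.2 and 11.9 CPM in controls and 2.05, 3.81 and 1.74 at KO day 3 (log2 fold change -2.12 with SE 0.37, adjusted p = 0.0315 by edgeR). Of 10 tested BBSome genes 1 fell, Bbs9, from 5.45 ± 0.785 to 0.378 ± 0.333 CPM (SD, n = 3). The BBSome median was -1.02, and it moved to -0.66 without KO day 3 replicate 1, to -1.59 without KO day 3 replicate 3 and to -0.31 among members with a mean of at least 5 CPM. The transition zone and basal body list had the lowest median of the ciliary lists, -1.53, and 19 of its 20 tested members were negative. Without KO day 3 replicate 1 its median was -1.18, and that of complex A was lower, at -1.36. Of these 20 genes 0 were called by edgeR over all 6 libraries, with 10 at an unadjusted p under 0.05, and DESeq2 called 8 and voom 4. In 17 of them every KO day 3 library was below every control, against 17.3% of all tested genes. Mks1 was at 7.03, 6.28 and 6.11 CPM in controls and 2.05, 2.37 and 1.04 at KO day 3 (log2 fold change -1.84 with SE 0.41, adjusted p = 0.0600 by edgeR), and B9d1 at 9.17 ± 1.46 and 1.07 ± 0.988 CPM. Without KO day 3 replicate 1, 6 of these 20 were called, as were 5 of 16 in complex B and 3 of 7 in complex A, against 5.04% of all genes tested in that fit.

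Of 11 tested ciliary motor genes 0 fell by edgeR and 1 rose, against 0.458% of all tested genes called higher. The list median was -0.94. The risen gene was the 1 positive member, and 6 members lay lower in every KO day 3 library than in any control, against 17.3% of all tested genes. It was Dynll1, a light chain that many protein complexes share, at 107 ± 6.61 CPM in controls and 201 ± 34.4 at KO day 3 (SD, n = 3), a log2 fold change of 0.90 (SE 0.16). Kifap3, the adaptor of the kinesin-2 motor, lay at 12.9 and 1.33 CPM in the means of the groups (log2 fold change -3.13 with SE 0.66, adjusted p = 0.0512 by edgeR), which did not pass the threshold.

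Lysosomal hydrolases had the most called falls of the 53 lists. Of 40 tested hydrolases and their helpers 12 fell and 0 rose, against 2.09% of all tested genes called lower. The median was -0.74, and 26 lay lower in every KO day 3 library than in any control, against 17.3% of all tested genes. The degraded substrates differ among the 12. Sumf1, the enzyme that activates sulfatases before they leave the endoplasmic reticulum, was at 29.4, 34.6 and 33.1 CPM in controls and 6.48, 6.27 and 5.63 at KO day 3 (log2 fold change -2.40 with SE 0.19, adjusted p = 0.00506 by edgeR), and it was called with any one library left out. Tpp1, a tripeptidyl peptidase, was at 37.7, 25.8 and 30.7 CPM in controls and 3.58, 5.68 and 5.42 at KO day 3 (log2 fold change -2.65 with SE 0.26, adjusted p = 0.0102 by edgeR). Every KO day 3 library was far below every control for Sumf1 and Tpp1.

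Further called hydrolase genes were Naglu, which fell by 2.42, Smpd1, Manba, Acp2, Ctsa, Ppt1 and Gaa, which fell by 1.26. They act on heparan sulfate, sphingomyelin, mannosides, phosphate esters, peptides, palmitoyl groups and glycogen. Ppt1, which overlaps Cap1 on the other strand, was at 49.0, 61.9 and 51.3 CPM in controls and 19.4, 24.5 and 20.9 at KO day 3. The abundant cathepsins did not follow: Ctsd was at 222 CPM in controls and 204 at KO day 3, and Ctsb at 531 and 597 in the means. Summed over the list, hydrolases were at 3393, 3619 and 3708 CPM of nuclear counts in controls and 2499, 2466 and 2528 at KO day 3. With TMM scaling the fall was smaller, from 3370, 3240 and 3233 CPM in controls to 2902, 2669 and 2619 at KO day 3.

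For the lysosomal membrane and proton pump, 3 of 31 tested genes fell, against 2.09% of all tested genes called lower, and 0 rose. The median was -0.29. Tmem9, a partner of the lysosomal chloride transporters, was at 28.8, 27.6 and 39.6 CPM in controls and 2.05, 4.92 and 6.95 at KO day 3 (log2 fold change -2.73, SE 0.39). Clcn7, the chloride and proton exchanger, and Atp6v0d1, a pump subunit, each fell by 1.13. Whether hydrolases and membrane genes differ in their response was not tested.

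Endosomal sorting genes fell in part. Commander, retromer and the actin-nucleating WASH complex return membrane proteins from endosomes to the surface or the Golgi. Of 28 tested members 4 fell, against 2.09% of all tested genes called lower, and 0 rose. The median was -0.30. Vps35l, the backbone of the retriever unit of Commander, was at 38.1, 39.1 and 46.8 CPM in controls and 5.29, 7.80 and 9.80 at KO day 3 (log2 fold change -2.41 with SE 0.25, adjusted p = 0.0106 by edgeR), and it overlaps Knop1 on the other strand. Commd4, another Commander subunit, was at 28.3, 25.5 and 23.2 CPM in controls and 6.99, 5.26 and 5.14 at KO day 3. In WASH, Washc2 fell by 1.72 and Washc3 fell by 1.98. The retromer core gene Vps35 was at 134 CPM in controls and 145 at KO day 3, with overlapping groups.

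Autophagy, peroxisome and fatty acid genes held a few called members each, to be read against 2.09% called lower among all tested genes. Of 33 autophagy genes 2 fell, Calcoco1 and Pik3r4, the regulatory subunit of the lipid kinase that starts autophagosomes, which went from 19.6 ± 1.21 to 5.82 ± 2.53 CPM (SD, n = 3). Of 39 peroxisomal genes 5 fell, with a median of -0.30. Among them Decr2, an enzyme for unsaturated fatty acids, was at 28.6, 21.1 and 28.4 CPM in controls and 6.31, 8.65 and 5.98 at KO day 3 (log2 fold change -1.89 with SE 0.24, adjusted p = 0.0181 by edgeR). Acox3, an oxidase of branched chains, fell by 1.65, the peroxin Pex16 fell by 0.93 and Hacl1 fell by 2.50, while Abcd4, which belongs to a peroxisomal transporter family but exports cobalamin from lysosomes, fell by 1.53. Of 31 mitochondrial fatty acid oxidation genes 2 fell, of which Acad11 fell by 1.53 and Ivd, which breaks down leucine, fell by 1.43.

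The respiratory chain and its builders were described separately. Of 36 nuclear-encoded complex I subunits 0 were called in edgeR, DESeq2 or voom and 6 had an unadjusted p under 0.05, with a median log2 fold change of 0.26. Against 2.09% of all tested genes called lower, 2 of 18 assembly factors fell by edgeR. These were Nubpl, which supplies iron-sulfur clusters, at 15.4, 17.2 and 16.1 CPM in controls and 2.39, 3.39 and 4.17 at KO day 3 (log2 fold change -2.26 with SE 0.27, adjusted p = 0.0160 by edgeR), and Ndufaf7, a methyltransferase, at 30.7 ± 1.38 and 14.5 ± 0.358 CPM (SD, n = 3). Of 38 tested subunits of complexes II to V 0 were called by edgeR, 13 had an unadjusted p under 0.05, and DESeq2 called 6 and voom 2. All 38 were positive, with a median of 0.35, which ranged from 0.085 to 0.45 across the alternatives. With TMM scaling their sums were 17394, 17769 and 17388 CPM in controls and 24868, 21472 and 19543 at KO day 3. Without it the sums overlapped, at 17512, 19848 and 19943 CPM in controls and 21419, 19838 and 18862 at KO day 3. The 77 mitochondrial ribosomal proteins gave 0 calls by edgeR, 16 at an unadjusted p under 0.05, 4 calls by DESeq2 and 2 by voom. Their median was 0.14, and -0.00081 without KO day 3 replicate 1. TMM factors were 1.01, 1.12 and 1.15 in controls and 0.863, 0.925 and 0.966 at KO day 3. Scaling by library size alone moved the median of all tested genes to -0.25, and on that scale the medians of 4 of 40 lists changed sign.

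Interferon-inducible GTPases rose at KO day 3. These p47 and p65 GTPases disrupt the vacuoles of intracellular pathogens. Of 18 listed members 10 passed the filter on low counts, and 7 of these 10 rose and 0 fell, against 0.458% called higher among all tested genes. The other 3 tested members, Gbp2, Gbp6 and Gbp7, had control means of at most 1.41 CPM and also lay higher in every KO day 3 library. A gene that passed the filter through its KO day 3 level had to differ, so this count is a description. Igtp was at 10.1, 8.52 and 7.15 CPM in controls and 84.1, 39.7 and 84.9 at KO day 3 (log2 fold change 3.01 with SE 0.33, adjusted p = 0.0106 by edgeR). Irgm2 was at 6.28, 4.93 and 3.49 CPM in controls and 27.6, 24.5 and 32.7 at KO day 3 (log2 fold change 2.52 with SE 0.27, adjusted p = 0.0106 by edgeR). Iigp1 was at 1.64, 1.34 and 0.262 CPM in controls and 44.5, 35.9 and 83.2 at KO day 3 (log2 fold change 5.61 with SE 0.56, adjusted p = 0.0106 by edgeR). KO day 3 replicate 2 was the lowest of its group for these 3 genes, yet above every control.

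The near-identical copies Tgtp1 and Tgtp2, between which reads may be split, rose by 5.44 (SE 0.67) and 3.60 (SE 0.47), and Olfr56 overlaps both. Irgm1 rose by 1.29 and Ifi47 by 1.40. Igtp and Irgm2 have overlapping gene models on the same strand, so their reads are not fully separable. The summed level of the list was 103, 101 and 124 CPM of nuclear counts in controls and 343, 288 and 553 at KO day 3. Markers of T cells and other leukocytes summed to 11.4, 8.58 and 4.2 CPM in controls and 45.4, 9.24 and 13.1 at KO day 3, from 23 genes of which 3 were tested and 0 called in edgeR (2 at an unadjusted p under 0.05, 1 called by DESeq2 and 1 by voom). Of the 23, 12 had 0 counts in all controls and 6 had 0 in all KO day 3 libraries. Ptprc, the common leukocyte marker, had 0 counts in controls and 23, 4 and 8 at KO day 3, while Itgax, Cd8a and Nkg7 had 0 counts in all 6 libraries. Gzmb had 5 counts over the controls and 166 over KO day 3, Tyrobp 0 and 35, Adgre1 3 and 23, and Lyz2 100 and 206. Other members had fewer or equal counts at KO day 3: Igkc had 53 and 10, Jchain 15 and 1, and Ighm 21 and 14. Itgam had 78 and 52, Trac 2 and 0, and Ccl5 11 and 11. The part of leukocytes in the GTPase levels was not tested. Fewer or more cells of a type and a different amount of transcript per cell cannot be told apart in bulk libraries.

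The promoters of 4 of these GTPase genes are printed because they share a pair of interferon motifs. Each line is the 120 bases before the RefSeq start on the gene's strand (GRCm38.p6), and capitals mark matches to the gamma-activated site (GAS, TTCNNNGAA) and to the core of the interferon-stimulated response element bound by IRF proteins (ISRE, the letters GAAA repeated after 2 free bases). The windows are chr11:58199436-58199555 (plus) for Igtp, chr11:58214857-58214976 (plus) for Irgm2, chr11:48992247-48992366 (minus) for Tgtp1 and chr11:49064213-49064332 (minus) for Tgtp2.
Igtp: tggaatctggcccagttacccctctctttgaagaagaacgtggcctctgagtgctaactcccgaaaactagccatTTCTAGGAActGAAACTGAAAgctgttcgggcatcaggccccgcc
Irgm2: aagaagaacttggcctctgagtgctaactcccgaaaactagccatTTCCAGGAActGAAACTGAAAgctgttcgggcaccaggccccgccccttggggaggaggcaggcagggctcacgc
Tgtp1: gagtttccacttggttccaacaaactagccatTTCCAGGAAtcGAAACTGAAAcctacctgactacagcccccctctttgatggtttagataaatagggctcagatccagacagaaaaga
Tgtp2: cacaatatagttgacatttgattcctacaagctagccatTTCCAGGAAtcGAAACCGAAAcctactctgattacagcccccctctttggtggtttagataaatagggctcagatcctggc
In each of the 4 windows 2 bases separate the GAS from the ISRE, which begins 34, 64, 77 and 70 bases before the start of Igtp, Irgm2, Tgtp1 and Tgtp2. These genes are related copies, so the arrangement is not 4 independent cases. The Irgm2 and Tgtp1 windows lie inside GENCODE models that start further upstream. Of the 8 tested GTPases with a RefSeq promoter, 7 (87.5%) held the ISRE core and 5 (62.5%) the GAS on either strand, against 2.90% and 6.85% of 9296 promoters of tested genes. A match is a description of the letters and not a bound site.

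Antigen presentation genes lay higher at KO day 3. For MHC class II, which displays peptides to helper T cells, 3 of 7 tested members rose and 0 fell, with a median of 2.05. All 7 lay higher in every KO day 3 library than in any control. Among all tested genes 0.458% were called higher and 13.1% lay higher without overlap. H2-Aa was at 68.3, 125 and 21.8 CPM in controls and 298, 497 and 707 at KO day 3 (log2 fold change 2.80 with SE 0.58, adjusted p = 0.0489 by edgeR). H2-Eb1 was at 57.9, 139 and 32.4 CPM in controls and 349, 392 and 568 at KO day 3 (log2 fold change 2.51 with SE 0.49, adjusted p = 0.0407 by edgeR). Ciita, the coactivator that switches these genes on, was at 4.11, 8.71 and 2.62 CPM in controls and 16.2, 27.3 and 32.6 at KO day 3 (log2 fold change 2.29 with SE 0.45, adjusted p = 0.0433 by edgeR), and it overlaps Dexi on the other strand. Control replicate 2 was the highest control and KO day 3 replicate 1 the lowest knockout library for the 3 genes. The class II sum was 573, 1330 and 289 CPM of nuclear counts in controls and 1736, 2616 and 3822 at KO day 3. The part of leukocytes in these levels was not tested.

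For MHC class I and the immunoproteasome, 3 of 16 tested members rose, against 0.458% of all tested genes called higher, and 0 fell. The median was 0.63, with 16 positive values. Tap1, a subunit of the peptide transporter, was at 15.1, 16.8 and 15.6 CPM in controls and 48.3, 69.7 and 102 at KO day 3 (log2 fold change 2.21 with SE 0.27, adjusted p = 0.0167 by edgeR). The immunoproteasome subunits Psmb9 and Psmb8 rose by 1.35 (SE 0.16) and 1.36 (SE 0.24). Tap1 and Psmb9 overlap on opposite strands, so reads near their shared start cannot be assigned without strand. B2m and H2-K1 lay at 702 and 520 CPM at KO day 3 against 452 and 318 in controls, at edgeR adjusted p = 0.0645 and 0.0512.

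In the wider interferon response 2 of 24 tested members rose, against 0.458% of all tested genes called higher, and 0 fell. The median was 0.43 (0.72 without control replicate 1), with 16 positive values and a range of -0.69 to 5.89. An unadjusted p under 0.05 was found for 8 members, and DESeq2 called 5 and voom 4. Without overlap 7 lay higher and 2 lower, against 13.1% and 17.3% of all tested genes. The transcription factor gene Irf1, one of the 2 that edgeR called, was at 27.6, 27.8 and 27.7 CPM in controls and 118, 49.8 and 89.3 at KO day 3 (log2 fold change 1.63 with SE 0.29, adjusted p = 0.0324 by edgeR). Sensors and antiviral effectors linked to type I interferon were not called by edgeR. Ifih1 and Oas1a lay at log2 fold changes of -0.51 (SE 0.25) and -0.18 (SE 0.31), and Isg15 at 1.84 (SE 0.64, edgeR adjusted p = 0.157). Whether the GTPases and this list differ was not tested.

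**Figure D3:**
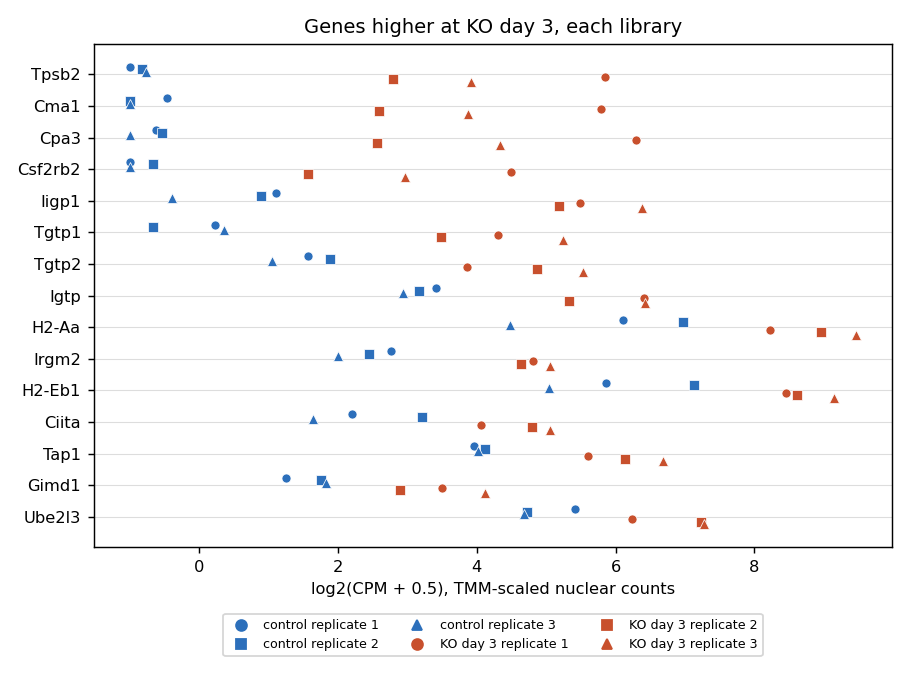
Level of the 15 genes with the largest called rises, as log2(CPM + 0.5) on the x axis, for each control (blue) and KO day 3 (orange) library. Mast cell genes (Tpsb2, Cma1, Cpa3 and Csf2rb2) are highest in KO day 3 replicate 1, while class II genes are highest in replicate 3.

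The largest rises were of mast cell transcripts, which were nearly absent from controls. Mast cells are tissue leukocytes that store proteases and histamine in granules. Of 19 listed markers 10 were tested, and 8 of these rose and 0 fell, against 0.458% called higher among all tested genes. The tested markers other than Kit had 0 to 9 counts over the 3 controls, so they passed the filter through KO day 3 and had to differ, and this count is a description. Tpsb2, a tryptase, had 0, 1 and 1 counts in controls and 333, 76 and 209 at KO day 3, a ratio of 390 per scaled library size (95% interval of counting error 108 to 3228). Cma1, a chymase, had 3 counts over the controls and 590 over KO day 3, and Il1rl1, the receptor for interleukin 33, had 1 and 211. Fcer1a, a chain of the high-affinity IgE receptor, had 0 counts in controls and 207 at KO day 3, at least 87.1-fold higher with the controls set to a floor of 3 counts over the group. Csf2rb2 shares near-identical sequence with Csf2rb, so their reads may be split. Markers that were not tested did not all follow. Hdc had 4 counts over the controls and 2 over KO day 3, and Tpsab1 had 0 in all 6 libraries. Mcpt1 and Mcpt2 had 0 counts in controls and 5 each over KO day 3, with 0 in replicate 1. Csf2rb had 0 and 149 counts and Ms4a2 0 and 43. Without Kit, which epithelial cells of the crypt base also express, the list summed to 0.828, 1.57 and 0.700 CPM of nuclear counts in controls and 247, 28.4 and 77.9 at KO day 3. KO day 3 replicate 1 was highest and replicate 2 lowest. Each of the 8 genes was called in 1 or 2 of the 6 fits that left out a library.

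**Figure D4:**
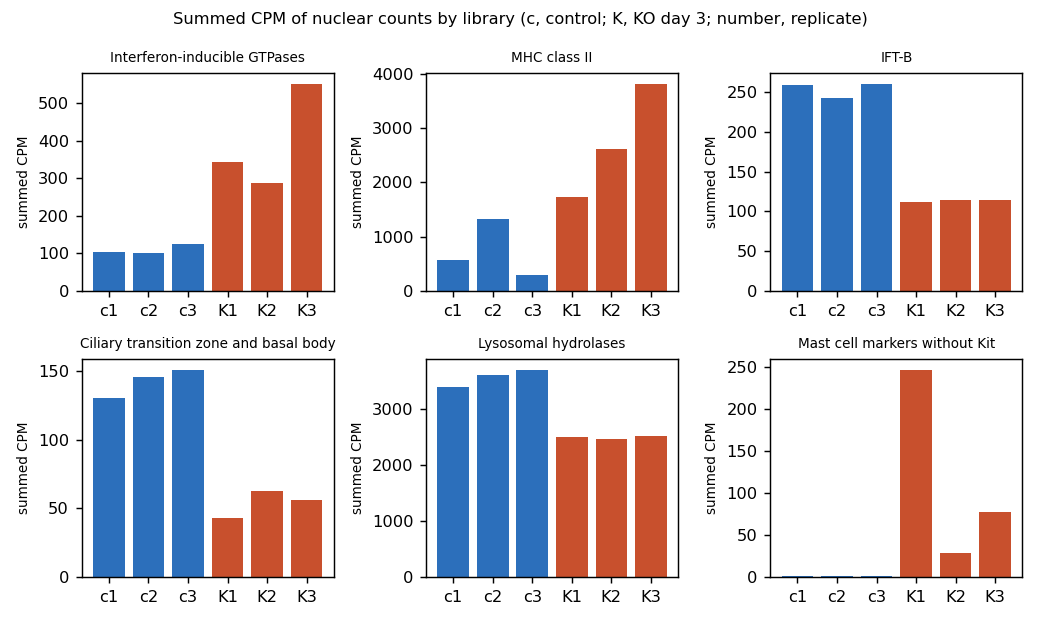
Summed CPM of nuclear counts for 6 gene lists, with control replicates 1 to 3 (c1 to c3, blue) and KO day 3 replicates 1 to 3 (K1 to K3, orange) on the x axis and bars starting at 0. Complex B of intraflagellar transport sits at 112 to 115 CPM in KO day 3 against 243 to 261 in controls, while the mast cell sum ranges from 28.4 to 247 CPM among KO day 3 libraries.

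Among the 15 largest rises, Ube2l3 and Gimd1 were in none of the lists. Ube2l3, a ubiquitin-conjugating enzyme, was at 41.9, 26.0 and 25.2 CPM in controls and 74.7, 150 and 155 at KO day 3 (log2 fold change 2.03 with SE 0.32, adjusted p = 0.0250 by edgeR). It overlaps Ydjc on the other strand. Gimd1, a GTPase-domain gene of the GIMAP family, was at 2.60 ± 0.640 CPM in controls and 11.5 ± 4.98 at KO day 3 (SD, n = 3; log2 fold change 2.15, SE 0.41).

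Stress and growth genes held few called members, to be read against 0.458% called higher and 2.09% called lower among all tested genes. Of 22 genes of the unfolded protein response 3 rose and 0 fell, with a median of 0.55. They were the endoplasmic reticulum factors Manf (log2 fold change 0.85, SE 0.16), Creld2 (0.95, SE 0.20) and Hsp90b1 (0.62, SE 0.13). Manf was at 172, 154 and 169 CPM in controls and 337, 241 and 312 at KO day 3. Among p53 target genes 1 of 27 rose, Eda2r, from 2.44 ± 0.761 to 8.80 ± 1.41 CPM, and 1 fell, Dcxr, from 22.1 ± 2.48 to 8.05 ± 0.996 (SD, n = 3). Cdkn1a lay at 17.8 and 38.5 CPM in the means (log2 fold change 1.11 with SE 0.26, adjusted p = 0.0657 by edgeR). Ftl1, the ferritin light chain, was the 1 gene to rise of 19 targets of NRF2 (log2 fold change 1.26, SE 0.22), and Fdft1, squalene synthase, the 1 of 32 lipid synthesis genes (log2 fold change 1.23, SE 0.25). Ephx1, an epoxide hydrolase, rose by 0.84 (SE 0.15) as the 1 called gene of 27 xenobiotic enzymes, whose median was -0.30. Of those 27, 8 were positive and 6 lay lower in every KO day 3 library than in any control, against 17.3% of all tested genes.

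Immediate early genes, which respond within minutes to stimulation or handling, lay lower. Of 23 tested 3 fell, against 2.09% of all tested genes called lower, and 0 rose. The median was -0.68. Fos was at 584, 632 and 309 CPM in controls and 179, 167 and 167 at KO day 3 (log2 fold change -1.57 with SE 0.26, adjusted p = 0.0269 by edgeR). Egr1 was at 217, 214 and 125 CPM in controls and 84.9, 84.0 and 74.4 at KO day 3 (log2 fold change -1.19 with SE 0.22, adjusted p = 0.0359 by edgeR), and Fosb fell by 1.80 (SE 0.36). Control replicate 3 was the lowest control for these 3 genes. Among transcription and repair lists, Taf1b, a factor of RNA polymerase I, fell by 3.06 as the 1 called gene of 43 ribosome biogenesis genes. Neil1, a glycosylase of base excision repair, fell by 1.89 as the 1 called gene of 64 repair genes. Both counts were near the 2.09% of all tested genes called lower. Of the 43 genes 39 were positive, with a median of 0.35 (0.21 without KO day 3 replicate 3). Of the 64 genes 22 were positive, with a median of -0.14 (-0.22 and -0.09 without control replicate 1 or 3).

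Several groups held no called gene in edgeR. Unadjusted p-values under 0.05 were found for 25 of 79 cytosolic ribosomal proteins, 20 of 45 DNA replication genes, 7 of 39 G2 and mitosis genes, and 1, 5 and 5 Paneth, enteroendocrine and tuft cell markers. In the same order DESeq2 called 6, 6, 0, 1, 2 and 4 members, and voom called 2, 3, 1, 0, 0 and 2. The 79 cytosolic ribosomal proteins were all positive, with a median of 0.48, and 30 of them lay higher in every KO day 3 library than in any control, against 13.1% of all tested genes. That median was 0.23 without KO day 3 replicate 1. Without TMM scaling the sum in that library was 127312 CPM of nuclear counts. The other knockout libraries were at 95844 and 84277, and controls at 84332 to 93697. With TMM scaling the sums were 93066, 80378 and 73531 CPM in controls and 147809, 103740 and 87321 at KO day 3. On both scales KO day 3 replicate 2 also lay above every control. The 45 DNA replication genes had a median of 0.33, with Pcna at 276, 279 and 296 CPM in controls and 363, 415 and 458 at KO day 3 (log2 fold change 0.54 with SE 0.14, adjusted p = 0.0851 by edgeR). The 39 G2 and mitosis genes had a median of 0.19, with 0.072 without control replicate 1 and 0.33 and 0.29 when control replicate 2 or KO day 3 replicate 1 was left out. Paneth cell markers summed to 60410, 25189 and 24197 CPM of nuclear counts in controls and 38775, 58880 and 48463 at KO day 3, overlapping, and 0 of 20 were called. Enteroendocrine and tuft cell markers had medians of 0.75 and 0.52 with 0 called of 16 and 13, and the first was 0.38 when control replicate 3 was left out and 0.40 when KO day 3 replicate 3 was.

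**Figure D5:**
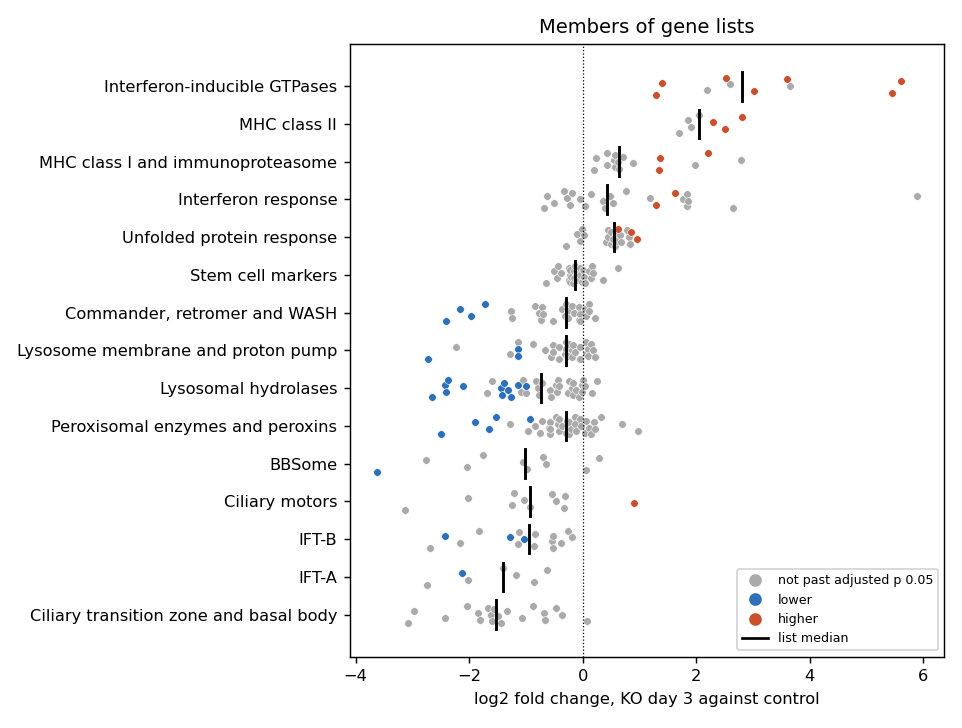
Log2 fold change of each tested member of 15 gene lists on the x axis, with members called lower in blue, called higher in orange and others in grey, and the list median as a black bar. The 4 ciliary transport lists and the transition zone list lie left of 0 in their medians, from -0.94 to -1.53, and the GTPase list lies at 2.80.

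Promoter composition was compared for the called genes with RefSeq windows of 250 bases before and 50 after the start. Of 274 fallen genes 227 matched, as did 44 of 60 risen genes and 9296 of the 13098 distinct symbols of tested genes. The median ratio of observed to expected CpG was 0.670 for fallen genes, 0.536 for risen genes and 0.778 for all tested genes. With genes at an unadjusted p under 0.01 it was 0.681 for lower genes and 0.797 for higher genes, so the low value of called higher genes did not hold there. Shkbp1 and Gstm2, both called with any one library left out, are printed to show how far the CpG content of single promoters differs. The windows below (chr7:27356020-27356258, minus, and chr3:107986454-107986670, minus) end where the GENCODE gene model begins, and capitals mark CpG pairs, 14 for Shkbp1 and 2 for Gstm2.
Shkbp1: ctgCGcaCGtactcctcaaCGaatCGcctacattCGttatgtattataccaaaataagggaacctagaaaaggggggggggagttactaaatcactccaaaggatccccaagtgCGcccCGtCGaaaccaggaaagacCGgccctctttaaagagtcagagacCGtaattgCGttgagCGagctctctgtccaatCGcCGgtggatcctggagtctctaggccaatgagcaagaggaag
Gstm2: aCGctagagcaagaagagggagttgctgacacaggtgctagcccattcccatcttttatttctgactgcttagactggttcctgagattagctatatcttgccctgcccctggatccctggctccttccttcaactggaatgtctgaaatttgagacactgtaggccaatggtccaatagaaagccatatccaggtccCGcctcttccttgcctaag
Matches to the ETS motif CCGGAAG were in 22.9% of fallen, 6.82% of risen and 19.6% of all tested promoters. The TATA box TATAAA was in 7.05%, 29.5% and 7.07%, and the ISRE core in 1.76%, 15.9% and 2.90%. The 7 risen promoters that held the ISRE core include those of Igtp, Irgm2, Tgtp1 and Tgtp2 printed above. That share is therefore not separate from the GTPase result. Among genes at an unadjusted p under 0.01, with 614 lower and 254 higher promoters, ETS was in 25.4% and 21.7%, TATAAA in 5.37% and 14.6% and the ISRE core in 3.09% and 7.09%. The X-box element GTTGCCNNG read by the ciliary RFX factors was in 7.05% of fallen and 5.34% of all tested promoters. The full palindrome of the lysosomal CLEAR element was in 0 of 227 fallen and 0.807% of all tested promoters. The shorter E-box inside that palindrome was not counted on its own. Each motif was searched on both strands.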

How the data were processed

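RNA was measured in sorted cells, 3 libraries per group. Per the submitters' processing notes, reads were processed with HISAT2 2.0.4 and GRCm38. For counting, the tool, strand setting and annotation are not given in the sources used here. Raw counts from the authors cover 57180 gene IDs, of which 51933 were named from GENCODE M21. The 37 mitochondrial genes were removed and nuclear counts were tested with edgeR 4.0.16 (R 4.3.3; filterByExpr, minimum count 10 and total 15; TMM; quasi-likelihood F-test; Benjamini-Hochberg adjustment), fitted on the 6 libraries alone. The SE is the fold change divided by the root of F. Alternatives used DESeq2 1.42.0, limma 3.58.1 voom, other scalings and filters, and left out each library. On simulated counts (12805 genes, this comparison), 28.8%, 82.1% and 96.9% of genes changed by 1, 2 and 3 on the log2 scale were recovered, and 8 unchanged genes were called. The changed genes were drawn from better-counted genes only, and those lost to the filter were not counted. The simulation held no outlying library, so these rates do not carry over to all genes here. Libraries of a group were not duplicates (chi-square over its degrees of freedom 18.6 to 55.8). Named genes were the 15 largest called changes per direction with a mean of at least 5 CPM, fixed genes and leading members of each of 53 lists. The members and lists were chosen with earlier results of these data known. Intervals and floors cover counting error only. Some results under this rule are not reported here.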

Additional observations from a re-analysis of the deposited data

Results flagged for a closer look

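Samples taken on day 4 of tamoxifen were fitted together with the other 6 libraries, a step chosen after seeing the data, and 1712 of 13393 genes (12.8%) differed between KO day 4 and KO day 3. Of the genes with the largest changes at day 3, 12 were among them (edgeR, Benjamini-Hochberg adjusted p). These genes were chosen for their largest changes at day 3, and day 4 was compared with the same day 3 libraries, which favours movement back toward the controls. Values are the log2 fold change of KO day 4 minus KO day 3. Mast cell transcripts were higher at day 4: Tpsb2 by 3.25 (adjusted p = 0.0116), Cma1 by 3.55 (adjusted p = 0.0116), Cpa3 by 3.38 (adjusted p = 0.0182) and Csf2rb2 by 3.56 (adjusted p = 0.0103). Interferon and antigen presentation genes were lower at day 4: Iigp1 at -3.48 (adjusted p = 0.0132), Igtp at -3.60 (adjusted p = 0.00325), Irgm2 at -1.64 (adjusted p = 0.0273), H2-Aa at -3.51 (adjusted p = 0.0237) and Tap1 at -1.95 (adjusted p = 0.0114). The fallen genes Shkbp1, Mpv17 and Man2b2 were higher at day 4 than at day 3, by 1.43 (adjusted p = 0.0127), 2.08 (adjusted p = 0.0175) and 1.76 (adjusted p = 0.0363). Mitochondrial transcripts took 66.9% to 72.1% of counts at day 4, so far fewer nuclear reads stand behind those levels.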

How the results depend on the processing

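The 334 calls became 788 (49 higher, 739 lower) with nuclear library size alone, 1226 (439 and 787) with DESeq2, 920 (251 and 669) with limma voom and 62 (20 and 42) in the fit of all 9 libraries. They became 473 (109 and 364) without the filter on low counts and stayed at 323 to 348 with RLE factors, mitochondrial genes kept in, a mean of at least 5 CPM or robust edgeR. Leaving out 1 library gave 6 to 878. With the replicate number as a block, 67 were called (30 higher, 37 lower), 55 of them shared. Deviations of same-numbered libraries correlated at 0.069, 0.025 and 0.132, so the numbers were not taken to pair them, although each library correlated best with its own number. The share of calls that were lower was 82.0%, and 93.8%, 64.2%, 72.7%, 67.7% and 55.2% with library size alone, DESeq2, voom, 9 libraries and the block. The cause of these shifts was not tested. Shkbp1, Gstm2 and Sumf1 were called in all 16 alternatives. The mitochondrial difference ranged from 4.76 to 11.5 percentage points. Among named genes and settings, 26 changed sign, all in genes that were not called. With library size alone Mcrs1 was at -0.249, Msl1 at -0.0271, Msl2 at -0.227 and Msl3 at -0.0777. Ascl2 was at 0.00594 with RLE factors and 0.00754 with DESeq2, and Ogt at -0.0571 with voom. Mcrs1 and Msl2 were at -0.0137 and -0.00490 without the filter, at -0.0135 and -0.00652 with at least 5 CPM, and at -0.0236 and -0.0154 with 9 libraries. With 1 library left out, the ranges were -0.0719 to 0.120 for Mcrs1, -0.0884 to 0.129 for Msl2, -0.405 to 0.180 for Ascl2, -0.361 to 0.0747 for Lgr5, -0.131 to 0.613 for Kansl3 and -0.0361 to 0.594 for Ogt.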

Other observations

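A few fallen genes were nearly absent at KO day 3; they lie outside the rule for named genes and were chosen after their values were seen. Zfp677, a zinc finger gene, had 34, 42 and 22 counts in controls and 0 in each KO day 3 library, at least 25.9-fold lower with KO day 3 set to 3 counts over the group. Tceal1 went from 68 counts to 0 (at least 18-fold lower) and Spin2c from 55 to 0 (at least 14.5-fold lower). Myl6b, a myosin light chain, had 60 and 2 counts, a ratio of 23.8 (95% interval of counting error 6.30 to 201), and Rtl8b had 61 and 2, a ratio of 24.2 (6.41 to 204).

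Of 270 fallen protein-coding genes 34 (12.6%) had a divergent neighbour starting within 1000 bases, as did 2 of 55 risen genes (3.64%) and 10.9% of all tested ones.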
